A study of Homo sapiens with 4 samples.

Results

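The mRNAs that encode core spliceosome proteins were followed in RNA that came down with KIF5A, a kinesin-1 heavy chain that walks along microtubules. The set holds 37 genes, chosen by symbol from the proteins of the U1, U2, U4/U6 and U5 snRNPs, the U2AF heterodimer and the Prp19-associated machinery. All 37 were found among the 60719 genes in the count tables. The cells were SKNAS, a human neuroblastoma cell line, transfected a day earlier with V5-tagged KIF5A of the d27 mutant (2 precipitates) or with V5-tagged wild-type KIF5A (WT, 2 precipitates). V5 is a short peptide tag, and beads carrying anti-V5 antibody pulled the tagged motor and its bound RNA out of the lysate. Tagged KIF5A was delivered by transfection in every group, so the levels are those of cells given extra motor. The series compares the mRNAs bound by each motor and names the KIF5A mutations as linked to ALS (amyotrophic lateral sclerosis). The labels do not say what alteration d27 denotes or whether the precipitates came from separate cultures. The p-values thus reflect how much these 4 libraries vary, and that variation may be technical. Without an input, mock or untransfected library, every value sets d27 against WT and is no enrichment over background. Less of an mRNA per cell, fewer transfected cells and less binding to the motor cannot be told apart.

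The spliceosome removes introns from nuclear transcripts and is assembled anew on each intron. U1 snRNP recognises the 5′ splice site, and U2 snRNP, helped by U2AF, recognises the branch point. The pre-formed U4/U6.U5 tri-snRNP then joins, U4 is unwound from U6, and the Prp19 complex stabilises the catalytic core. The Sm proteins form the ring on which the U1, U2, U4 and U5 snRNPs are built. These proteins work in the nucleus, but their mRNAs are translated in the cytoplasm, where kinesin-1 moves its cargo.

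Gene counts totalled 18335151 and 10483082 in d27 replicates 1 and 2 and 8142869 and 10811134 in WT replicates 1 and 2. KIF5A itself took 10.8% and 11.2% in d27 and 9.03% and 14.8% in WT of these counts, with a log2 fold change of -0.20 ± 0.49 (SE; edgeR adjusted p = 0.821), and turned to 0.40 without WT replicate 2. WT replicate 1 correlated with d27 replicate 2 (r = 0.930 across genes, on log2 CPM) as closely as with WT replicate 2 (0.928), while the d27 libraries correlated at 0.963. Counts per gene do not tell a transfected construct from the endogenous transcript, so they do not check which construct a library held. Of 6 mesenchymal neuroblastoma markers all were detected in each library, with a summed level of 4634 and 4302 CPM in d27 and 3228 and 3500 CPM in WT. Of these, 3 were higher in both d27 libraries (FOSL1, SNAI2 and CD44), 2 were lower in both (VIM and FN1), and 1 overlapped. FOSL1 had 1911 and 1743 CPM in d27 and 166 and 142 CPM in WT, VIM 1182 and 1336 CPM in d27 and 1804 and 1856 CPM in WT and FN1 164 and 337 CPM in d27 and 487 and 1056 CPM in WT. Of 8 adrenergic markers, TH had 0 counts in d27 replicate 1 and in WT replicate 2, and the sum was 735 and 589 CPM in d27 and 848 and 829 CPM in WT. GATA3 was higher in both d27 libraries (118 and 101 CPM in d27 and 68.6 and 67.1 CPM in WT), 4 were lower in both and 3 overlapped. HBB, EPCAM and KRT5, which mark other cell types, had 0 counts in every library and ALB and PECAM1 were under 2 CPM, whereas the leukocyte gene PTPRC had 100.5 and 79.5 CPM in d27 and 189 and 162 CPM in WT. Other RNA classes moved with the construct too: 3 nuclear lncRNAs (MALAT1, NEAT1 and KCNQ1OT1) took 0.458% and 0.434% in d27 and 0.933% and 1.08% in WT of gene counts, and 13 mitochondrially encoded mRNAs took 0.315% and 0.385% in d27 and 1.17% and 0.694% in WT. The part of these classes, of the neuroblastoma markers and of PTPRC in the differences below was not tested.

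All 37 spliceosome mRNAs passed the filter on low counts, and 8 of them passed the test between d27 and WT. SF3B4, SF3A2 and SNRPD3 were higher in d27. PRPF8, PRPF6, PRPF31, SF3B1 and EFTUD2 were lower, and the other 29 did not pass. Calls are those with a Benjamini-Hochberg adjusted p under 0.05 in edgeR's quasi-likelihood test over all 14909 genes tested. Across those genes 11.7% were called, with 8% higher and 3.7% lower. Among the spliceosome mRNAs 8.11% were higher, near the share of all genes, and 13.5% were lower. They were more abundant than most, with a median level of 101 CPM (counts per library scaled to a common total with TMM) against 18.6 CPM for all genes tested, and no test was made of the list. The median log2 fold change, d27 over WT, was -0.17 for the 37 and -0.00043 for all genes tested. It was 0.0024 without WT replicate 1 and -0.31 without d27 replicate 2, the ends of its range over 13 alternatives. The 5 lower calls became 3 without WT replicate 2 and 0 without d27 replicate 1, and the 3 higher calls became 2 without d27 replicate 1.

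Both d27 libraries lay above both WT libraries for 13 of the 37 and below them for 14, and the groups overlapped for 10. Among all genes tested, 31.4% lay above, 29.8% lay below and 61.2% were apart in either direction, so that the 27 members apart are near the background. The summed share of the 37 in gene counts was 0.569% and 0.654% in d27 and 0.709% and 0.782% in WT. TPM are counts per kilobase of merged exons, rescaled to the same sum in each library. As TPM the order was the opposite, with a sum of 6632 and 6136 TPM in d27 and 4598 and 5670 TPM in WT. The direction of the sum thus depends on the scale. SF3B4 alone made up 1548 and 1278 TPM of it in d27 and 198 and 163 TPM in WT, so the order of the TPM sums rests largely on SF3B4. The U5 proteins alone summed to 855 and 1386 CPM in d27 and 2237 and 4219 CPM in WT. Of this, SNRNP200, which did not pass, made up 372 and 758 CPM in d27 and 1136 and 2739 CPM in WT. Leaving out U5, the other 32 took 0.483% and 0.511% in d27 and 0.467% and 0.406% in WT. SF3B4 is among these 32, with a share from 0.00891% in WT replicate 2 to 0.0761% in d27 replicate 2. The order of this remainder thus also rests largely on SF3B4. By subcomplex, the SF3A sum was 1164 and 1142 CPM in d27 and 602 and 780.2 CPM in WT and the SF3B sum was 1656 and 1672 CPM in d27 and 1701 and 1658 CPM in WT. As TPM, the SF3B sum was 2129 and 1827 TPM in d27 and 928 and 849 TPM in WT, higher in both d27 libraries. SF3B4 made up most of the SF3B sum in d27. As TPM, SF3B1, SF3B2 and SF3B3 were lower in both d27 libraries, PHF5A was higher in both, and SF3B5 and SF3B6 overlapped.

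**Figure D1:**
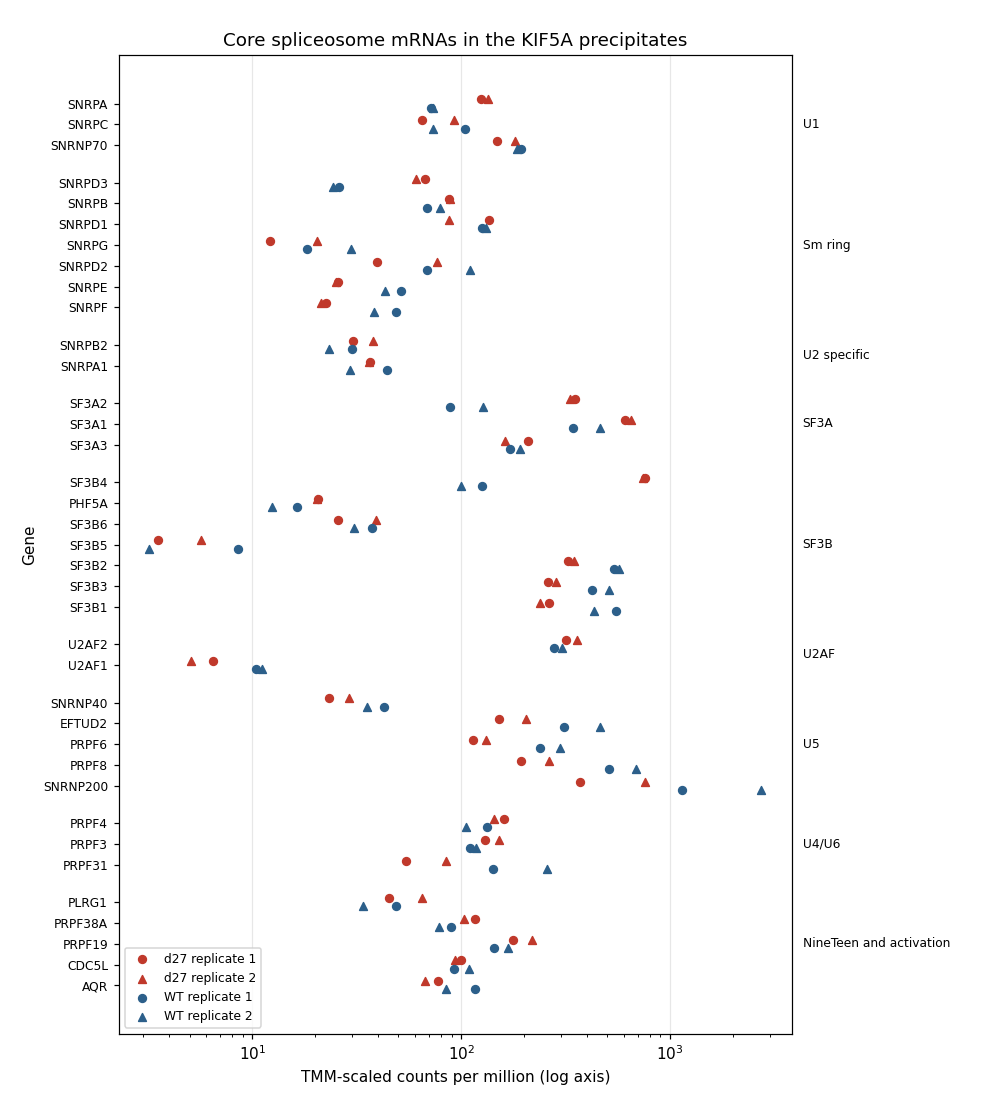
TMM-scaled CPM (log axis) of the 37 mRNAs in each library, d27 in red and WT in blue, circles for replicate 1 and triangles for replicate 2, grouped by subcomplex. SF3B4 stands apart with d27 libraries at 756 and 739 CPM and WT libraries at 126 and 99.8 CPM. For 14 of the 37 mRNAs, among them every U5 mRNA, both d27 points lie left of both WT points.

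The SF3B complex holds the branch-point helix inside U2 snRNP, and of its 7 mRNAs 1 was called higher in d27 and 1 lower. SF3B4 (ENSG00000143368.10, chr1:149923317-149928344, minus strand; positions here are of GRCh38, GENCODE 29) encodes an RNA-binding subunit that contacts the intron near the branch point. It had 756 and 739 CPM in d27 replicates 1 and 2, against 126 and 99.8 CPM in WT replicates 1 and 2. Every d27 library exceeded every WT library, and the 2 d27 values were nearly equal. The means were 747 ± 11.6 CPM in d27 and 113 ± 18.3 CPM in WT (SD, n = 2 each), 6.63-fold higher on the fitted scale (2.73 ± 0.27 in log2 with its SE, edgeR adjusted p = 0.00631). By p it ranked 18 among the 14909 genes tested, and by fold change 166 from the top. It was called in each of 13 alternatives, with a log2 fold change between 2.59 and 2.95 and an adjusted p (edgeR, or DESeq2 where that was the alternative) from 1.4e-21 to 0.00879. No other gene shares exon bases with SF3B4 in GENCODE 29, and no pseudogene carries its name there.

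SF3B1 (ENSG00000115524.17, chr2:197389784-197435091, minus strand), the large HEAT-repeat subunit that clamps the branch helix, went the other way. It had 264 and 237 CPM in d27 replicates 1 and 2, against 550.1 and 434 CPM in WT replicates 1 and 2, with both d27 libraries lowest. That is -0.97 ± 0.25 in log2 (SE, edgeR adjusted p = 0.0468). That call did not survive leaving out WT replicate 1 (-0.75, edgeR adjusted p = 0.0762), d27 replicate 1 (-1.04, adjusted p = 0.175) or d27 replicate 2 (-0.87, adjusted p = 0.191). It was also lost with library totals in place of TMM (-0.95, edgeR adjusted p = 0.0805) and with an offset that takes out GC content and the lengths of coding sequence and 3′ UTR (hereafter the coding-length offset; -0.51, adjusted p = 0.184). SF3B2, the partner of SF3B4 at the intron, had 326 and 348 CPM in d27 and 539.7 and 567 CPM in WT (log2 -0.72 ± 0.24 SE, edgeR adjusted p = 0.0914). SF3B3, a propeller-fold scaffold, had 262 and 283 CPM in d27 and 423 and 511 CPM in WT (log2 -0.78 ± 0.25 SE, edgeR adjusted p = 0.0795). Neither passed, although the groups did not overlap for either. DESeq2 called both (DESeq2 adjusted p = 0.0297 and 0.0223). Both also passed in edgeR with the replicate number as a block (edgeR adjusted p = 0.0425 for SF3B2 and 0.0307 for SF3B3). Without WT replicate 1 the log2 fold change of SF3B3 was -0.86. With the coding-length offset the log2 fold changes of SF3B2 and SF3B3 were -0.06 and -0.23. The small subunits PHF5A (0.51), SF3B6 (-0.07) and SF3B5 (-0.36) did not pass, and SF3B5 had only 31 to 75 counts per library.

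SF3A bridges SF3B to the rest of U2 snRNP. SF3A2 (ENSG00000104897.10, chr19:2236504-2248679, plus strand), a zinc-finger subunit beside the branch helix, had 349 and 332 CPM in d27 replicates 1 and 2, against 87.9 and 128 CPM in WT replicates 1 and 2. Both d27 libraries were higher than both WT libraries, and the means were 340.4 ± 12.2 CPM in d27 and 108 ± 28.2 CPM in WT (SD, n = 2 each). It was 3.16-fold higher on the fitted scale (1.66 ± 0.27 in log2 with its SE, edgeR adjusted p = 0.0142), and it was called in all 13 alternatives (log2 1.46 to 1.98, adjusted p of edgeR or DESeq2 from 5.76e-07 to 0.0145). SF3A2 shares 398 exon bases with PLEKHJ1 on the opposite strand. PLEKHJ1 had far fewer reads, with 494 and 443 counts in d27 and 140 and 90 in WT, against 6435 and 3580 in d27 and 775 and 1233 in WT for SF3A2. SF3A1, which binds U1 as well as U2 parts, had 606 and 648 CPM in d27 and 343 and 461 CPM in WT without overlap, but did not pass (log2 0.64 ± 0.27 SE, edgeR adjusted p = 0.150). SF3A3 had 209 and 162 CPM in d27 and 171 and 192 CPM in WT, with overlapping groups and a log2 fold change of 0.04.

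The promoters of the 3 mRNAs that were higher in d27 are shown because these are the members called higher. The windows run from 250 bases before to 50 bases after a start site (RefSeq, GRCh38.p14), 5′ to 3′ on the gene's strand. They were searched on both strands for the letters CCGGAAGT (the core of ETS-family sites), TGAGTCA (the AP-1 site) and TGACGTCA (the CRE site), none of which overlapped in these windows. Capitals mark a match.
SF3B4 (chr1:149927754-149928053, minus strand): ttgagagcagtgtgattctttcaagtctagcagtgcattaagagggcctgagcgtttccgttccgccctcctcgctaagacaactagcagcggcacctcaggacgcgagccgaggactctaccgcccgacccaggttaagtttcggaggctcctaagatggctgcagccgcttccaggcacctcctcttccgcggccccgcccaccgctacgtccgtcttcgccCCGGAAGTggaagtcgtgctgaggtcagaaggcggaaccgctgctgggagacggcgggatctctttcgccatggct
SF3A2 (chr19:2236574-2236873, plus strand): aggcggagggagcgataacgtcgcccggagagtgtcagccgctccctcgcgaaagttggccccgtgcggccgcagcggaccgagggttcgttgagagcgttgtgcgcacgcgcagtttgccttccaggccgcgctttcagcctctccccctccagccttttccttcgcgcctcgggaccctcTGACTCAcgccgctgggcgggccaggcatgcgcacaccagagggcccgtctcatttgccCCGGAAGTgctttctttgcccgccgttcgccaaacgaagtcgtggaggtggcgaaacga
SNRPD3, the downstream of its start sites (chr22:24555749-24556048, plus strand): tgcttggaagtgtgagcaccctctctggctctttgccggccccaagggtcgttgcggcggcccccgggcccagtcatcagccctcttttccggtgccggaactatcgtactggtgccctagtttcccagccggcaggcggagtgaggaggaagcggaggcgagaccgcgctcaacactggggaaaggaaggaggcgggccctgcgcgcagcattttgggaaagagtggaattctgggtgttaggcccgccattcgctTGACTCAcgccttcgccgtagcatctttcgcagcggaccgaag

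The ETS letters begin 26 bases before the start site of SF3B4 and 9 bases before that of SF3A2. The AP-1 letters, read on the other strand, begin 68 bases before the start site of SF3A2 and at position 8 after the downstream start site of SNRPD3. The window of the upstream start site of SNRPD3 (chr22:24555400-24555699), not printed here, held none of the searched letters. Windows were at hand for 33 members, all but SF3B3, PHF5A, SNRPD1 and PRPF3. The ETS letters were in 12 of these 33 (36.4%), against 4.95% of 27305 genes with a window. Those 27305 were not limited to genes tested here, so the 2 shares are of unlike sets. Of the 12, 2 were called higher (SF3B4 and SF3A2), 1 was called lower (PRPF6), and the rest were not called. The AP-1 letters were in SF3A2 and SNRPD3 alone among the 33 (6.06%, against 6.05% of genes). The CRE letters were in SNRNP40 only (3.03%, against 2.25% of genes). These are matches of letters and show no binding.

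**Figure D2:**
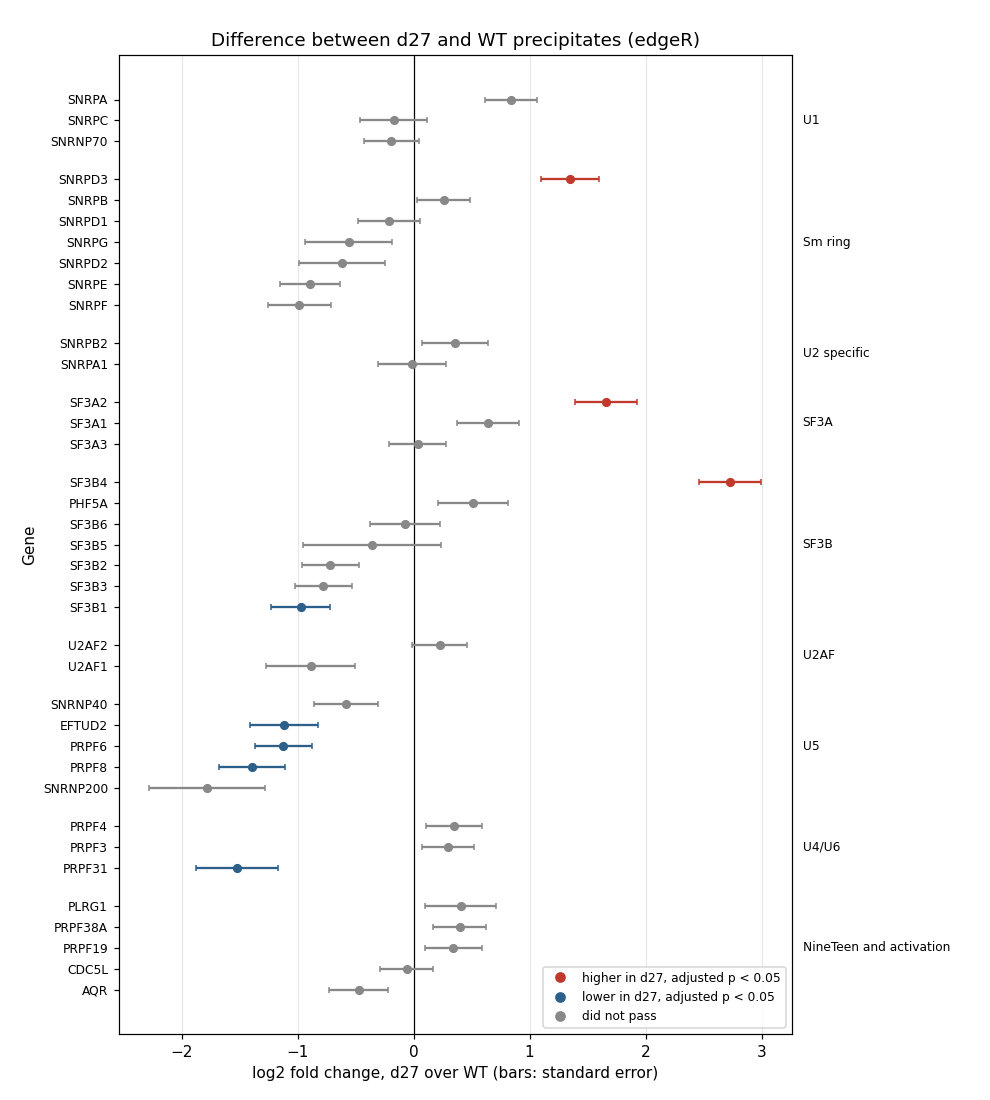
Log2 fold change of each mRNA, d27 over WT, with its standard error from edgeR, grouped by subcomplex (red, called higher in d27; blue, called lower; grey, did not pass). SF3B4 at 2.73, SF3A2 at 1.66 and SNRPD3 at 1.35 lie to the right. Of the 37, 22 lie left of 0, among them the U5 mRNAs, PRPF31 and SF3B1, with SNRNP200 at -1.78 carrying a wide bar.

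The 7 Sm ring mRNAs differed among themselves. SNRPD3 (ENSG00000100028.12, chr22:24555503-24609980, plus strand), which pairs with SNRPB in the ring, had 67.4 and 61.0 CPM in d27 replicates 1 and 2, against 26.1 and 24.3 CPM in WT replicates 1 and 2. Both d27 libraries were above both WT libraries, 2.55-fold higher on the fitted scale (1.35 ± 0.25 in log2 with its SE, edgeR adjusted p = 0.0195). The call was lost without d27 replicate 1 (1.29, edgeR adjusted p = 0.0652) and held in the other 12 alternatives. SNRPD3 shares 321 exon bases with GUCD1 on the opposite strand and 306 with GGT1 on its own strand. GGT1 had at most 1 count per library, and GUCD1 had 165 and 165 CPM in d27 and 82.4 and 71.6 CPM in WT. The SNRPD3 count is therefore uncertain, since the strand setting of the counting is not given in the sources used here.

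SNRPF had 22.6 and 21.4 CPM in d27 and 48.9 and 38.3 CPM in WT, with both d27 libraries lowest, but did not pass (log2 -0.99 ± 0.27 SE, edgeR adjusted p = 0.0548). SNRPE, its neighbour in the ring, was close to it, with 25.8 and 25.2 CPM in d27 and 51.5 and 43.3 CPM in WT (log2 -0.89 ± 0.26 SE, edgeR adjusted p = 0.0629). Each passed in some alternatives, SNRPF in 7 of 13 and SNRPE in 6 of 13, with adjusted p of edgeR or DESeq2 from 0.000870 to 0.245 for SNRPF and from 0.00246 to 0.310 for SNRPE. Among the fits with a library left out, SNRPF passed without WT replicate 2 (-1.13, edgeR adjusted p = 0.0392). SNRPB (0.26), SNRPD1 (-0.21), SNRPG (-0.56) and SNRPD2 (-0.62) did not pass. SNRPG, SNRPE, SNRPF and SNRPD2 have 20, 9, 4 and 2 named pseudogenes in GENCODE 29, so reads that fit several places may be missing from their counts.

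In U1 snRNP, SNRPA was nearest to a call. It encodes the U1 A protein, which binds a stem-loop of U1 RNA and also represses the polyadenylation of its own transcript. SNRPA had 124 and 135 CPM in d27 replicates 1 and 2, against 71.4 and 73.3 CPM in WT replicates 1 and 2, with no overlap (log2 0.84 ± 0.22 SE, edgeR adjusted p = 0.0502). It passed in 7 of 13 alternatives, with adjusted p of edgeR or DESeq2 from 0.00591 to 0.145. One of these was the fit without WT replicate 1 (0.86, edgeR adjusted p = 0.0474). SNRNP70, the U1-70K protein, had 149 and 181 CPM in d27 and 193 and 184 CPM in WT and did not pass (log2 -0.19). SNRPC, which steadies the pairing of U1 with the 5′ splice site, had 65.0 and 92.8 CPM in d27 and 104 and 73.4 CPM in WT with overlapping groups, and 18 pseudogenes bear its name. No U1 protein was called by edgeR, 1 of 3 had an unadjusted p under 0.05, and DESeq2 called 1.

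Among the U2-specific proteins, SNRPB2 had 30.3 and 37.9 CPM in d27 and 29.9 and 23.2 CPM in WT (log2 0.36 ± 0.29 SE, edgeR adjusted p = 0.432). SNRPA1 had 36.5 and 36.3 CPM in d27 and 44.4 and 29.3 CPM in WT, with a log2 fold change of -0.02. Neither passed in edgeR; 0 of 2 had an unadjusted p under 0.05 and DESeq2 called 0. For U2AF, the dimer that marks the 3′ splice site, U2AF1 had 6.51 and 5.10 CPM in d27 and 10.4 and 11.1 CPM in WT (log2 -0.89 ± 0.38 SE, edgeR adjusted p = 0.163). Only 55 to 120 reads per library were counted for U2AF1, a gene that GRCh38 holds in a second, near-identical copy, so its level is uncertain. U2AF2, which binds the polypyrimidine tract, had 319 and 359 CPM in d27 and 277 and 303 CPM in WT and did not pass (log2 0.22). In the U2AF pair edgeR made no call (0 of 2 had an unadjusted p under 0.05 and DESeq2 called 0).

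All 5 mRNAs of the U5 snRNP were lower in both d27 libraries than in both WT libraries, and 3 of them passed the test. Among all genes tested, 29.8% lay below in the same way and 3.7% were called lower. PRPF8 (ENSG00000174231.17, chr17:1650629-1684882, minus strand), the scaffold that cradles the catalytic RNAs, had 194 and 262 CPM in d27 replicates 1 and 2, against 509.8 and 686 CPM in WT replicates 1 and 2. The mean was 228 ± 48.4 CPM in d27 and 598 ± 124 CPM in WT (SD, n = 2 each), with a log2 fold change of -1.39 ± 0.29 (SE; edgeR adjusted p = 0.0258). PRPF6 (ENSG00000101161.8, chr20:63981135-64033100, plus strand), which bridges U5 to U4/U6, had 114 and 132 CPM in d27 replicates 1 and 2, against 238 and 298 CPM in WT replicates 1 and 2 (log2 -1.12 ± 0.25 SE, edgeR adjusted p = 0.0302). EFTUD2 (ENSG00000108883.13, chr17:44849943-44899662, minus strand), the GTPase of the complex, had 152 and 205 CPM in d27 replicates 1 and 2, against 311 and 461 CPM in WT replicates 1 and 2 (log2 -1.11 ± 0.29 SE, edgeR adjusted p = 0.0485). In each of these the lower WT library still exceeded the higher d27 library.

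SNRNP200 (ENSG00000144028.15, chr2:96274336-96305515, minus strand), the helicase that unwinds U4 from U6, varied widely between replicates. It had 372 and 758 CPM in d27 replicates 1 and 2, against 1136 and 2739 CPM in WT replicates 1 and 2. The groups did not overlap, with WT replicate 2 far above the other libraries, and the difference did not pass with all libraries (log2 -1.78 ± 0.50 SE, edgeR adjusted p = 0.0569), though it passed in 6 of 13 alternatives. Without WT replicate 2 the log2 fold change was -0.99, edgeR adjusted p = 0.155, and without WT replicate 1 it was -2.24, adjusted p = 0.000155. Without d27 replicate 1 it was -1.34, edgeR adjusted p = 0.196, and without d27 replicate 2 it was -2.35, adjusted p = 0.00184. SNRNP40, a WD40-repeat protein of U5, had 23.2 and 28.9 CPM in d27 and 42.5 and 35.4 CPM in WT and did not pass (log2 -0.58 ± 0.28 SE, edgeR adjusted p = 0.198).

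The U5 calls did not hold in every alternative. Under the exon-length offset, which also takes out GC, PRPF8 (-1.01, edgeR adjusted p = 0.0289) and PRPF6 (-1.27, adjusted p = 0.00801) kept theirs and EFTUD2 (-0.78, adjusted p = 0.0645) did not. Without d27 replicate 1 none of them passed: PRPF8 was at -1.17, edgeR adjusted p = 0.127, PRPF6 at -1.01, adjusted p = 0.148 and EFTUD2 at -0.89, adjusted p = 0.252. Without WT replicate 2, PRPF6 (-0.93, edgeR adjusted p = 0.0734) and EFTUD2 (-0.78, adjusted p = 0.145) did not pass. With the coding-length offset, chosen after seeing the data, PRPF8 was at -0.10, edgeR adjusted p = 0.787, PRPF6 at -0.39, adjusted p = 0.212 and EFTUD2 at -0.70, adjusted p = 0.0804. SNRNP200 was at -0.69, edgeR adjusted p = 0.224 in that fit. That offset changes GC, coding length and 3′ UTR length at once, and their separate parts were not tested. EFTUD2 also failed with library totals only (-1.04, edgeR adjusted p = 0.0576).

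The 3 U4/U6 proteins were split. PRPF31 (ENSG00000105618.14, chr19:54115410-54131719, plus strand), which clamps the U4 RNA and its bound protein and is mutated in inherited retinal degeneration, had 54.7 and 84.5 CPM in d27 replicates 1 and 2, against 142 and 257 CPM in WT replicates 1 and 2. Both d27 libraries were lower than both WT libraries, with a log2 fold change of -1.52 ± 0.35 (SE; edgeR adjusted p = 0.0343). It kept its call with the coding-length offset (-1.46, edgeR adjusted p = 0.0170) and lost it without WT replicate 2 (-1.02, adjusted p = 0.0687) and without d27 replicate 1 (-1.22, adjusted p = 0.0724). PRPF31 shares 266 exon bases with TFPT on the opposite strand, which had 27.7 and 25.9 CPM in d27 and 34.4 and 31.6 CPM in WT. It also shares 589 exon bases with the antisense gene AC245052.4, which had 4 and 1 counts in d27 and 3 and 0 counts in WT. Its partners PRPF3 (130.1 and 151 CPM in d27 and 111 and 118 CPM in WT) and PRPF4 (161 and 143 CPM in d27 and 133 and 105 CPM in WT) had d27 libraries above WT libraries but did not pass (log2 0.30 ± 0.23 SE and 0.35 ± 0.24 SE; edgeR adjusted p = 0.412 and 0.363). PRPF3 passed with the coding-length offset alone (0.71, edgeR adjusted p = 0.0456).

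None of the 5 proteins of the Prp19 complex and of activation passed in edgeR, 0 of 5 had an unadjusted p under 0.05 and DESeq2 called 0. AQR, an intron-binding helicase, had the lowest p of these, with 77.8 and 66.7 CPM in d27 and 116 and 85.0 CPM in WT (log2 -0.47 ± 0.26 SE, edgeR adjusted p = 0.249). PRPF19, the ubiquitin ligase that names the complex, had 177 and 218 CPM in d27 and 143 and 168 CPM in WT (log2 0.34). PRPF38A, which joins with the tri-snRNP, had 117 and 103 CPM in d27 and 89.1 and 78.0 CPM in WT (log2 0.40). PLRG1 (0.41) and CDC5L (-0.06) had overlapping groups.

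Ratios between members of one complex do not depend on how the libraries are scaled. The pairs were chosen with the calls known, so their separation restates those calls and is a description. Per kilobase of merged exons, the ratio of SF3B4 to SF3B1 was 11.7 and 12.7 in d27 replicates 1 and 2 and 0.933 and 0.938 in WT replicates 1 and 2. Per kilobase of the transcript with the longest coding sequence, a length chosen after seeing the data, it was 8.97 and 9.75 in d27 and 0.715 and 0.719 in WT. The choice of length moves the ratio itself and leaves the difference between d27 and WT as it was. The ratio of SF3A2 to SF3A1 was 1.16 and 1.03 in d27 replicates 1 and 2 and 0.518 and 0.560 in WT replicates 1 and 2. For SNRPD3 over SNRPE it was 1.51 and 1.40 in d27 replicates 1 and 2 and 0.294 and 0.326 in WT replicates 1 and 2, and for PRPF31 over PRPF3 it was 0.845 and 1.12 in d27 replicates 1 and 2 and 2.59 and 4.37 in WT replicates 1 and 2. Within U5, SNRNP200 over PRPF8 overlapped, at 2.00 and 3.00 in d27 replicates 1 and 2 and 2.32 and 4.15 in WT replicates 1 and 2. EFTUD2 over PRPF8 was higher in both d27 libraries, at 0.857 and 0.856 in d27 replicates 1 and 2 and 0.667 and 0.736 in WT replicates 1 and 2. PRPF6 over PRPF8 was also higher in both, at 2.20 and 1.88 in d27 replicates 1 and 2 and 1.74 and 1.62 in WT replicates 1 and 2.

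**Figure D3:**
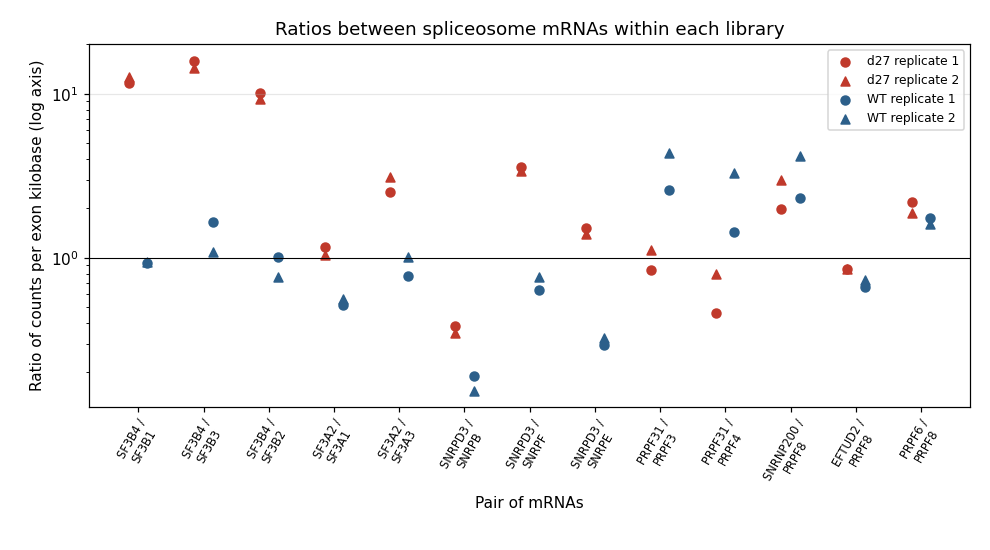
Ratio of counts per exon kilobase (log axis) for pairs of spliceosome mRNAs within each library, d27 in red left of WT in blue, circles for replicate 1 and triangles for replicate 2. SF3B4 over SF3B1 is 11.7 and 12.7 in d27 and 0.933 and 0.938 in WT, and the PRPF31 ratios are lower in both d27 libraries.

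The order of levels among the 37 depended on the length used. SF3B4 had 1548 and 1278 TPM in d27 and 198 and 163 TPM in WT (replicates 1 and 2 of each, merged exon length). By mean TPM it ranked 1 in d27 and 13 in WT, and per transcript kilobase 1 in d27 and 16 in WT. SF3A2 ranked 2 in d27 and 18 in WT by TPM, and 3 in d27 and 15 in WT per transcript kilobase. SNRNP200 had 157 and 269 TPM in d27 and 368 and 921 TPM in WT, ranked 9 in d27 and 1 in WT by TPM, and 10 in d27 and 1 in WT per transcript kilobase. The ranks of other members moved more. PRPF6 was at 2 in WT by TPM and at 7 per transcript kilobase, and SF3B2, with 9795 merged exon bases and a transcript of 2903, was at 9 and 2.

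The mRNAs that were lower in d27 included those with the longest coding sequences of the set. Of the 9 members with the longest coding sequences (2406 to 7005 bases: CDC5L, SF3B2, PRPF6, EFTUD2, SF3B3, SF3B1, AQR, SNRNP200 and PRPF8), 4 were called lower, none was called higher, and all 9 had a log2 fold change below 0, with a median of -0.97. In the 9 with the shortest (258 to 381 bases), 1 was called higher, none was called lower, and 7 were below 0, with a median of -0.36. Of all 14909 genes tested, 3.7% were called lower, 8% were called higher and 7456 were below 0. Across the 37, log2 fold change and log2 coding length had a Pearson r of -0.24 and a Spearman rho of -0.24. Over 12299 protein-coding genes tested in the same libraries r was -0.36 and rho -0.40. Other lengths gave other values. With merged exon length r was -0.32 and rho -0.31 across the 37, and -0.15 and -0.18 over 12306 protein-coding genes. With transcript length they were -0.14 and -0.08 across the 37, and -0.13 and -0.15 over 12299. With 3′ UTR length they were -0.0019 and 0.12 across the 37, and 0.13 and 0.15 over 12240. These are descriptions across genes that share 4 libraries. PRPF31, called lower, has a coding sequence of 1497 bases, between those of SF3A2 (1392, called higher) and SF3A3 (1503, not called). The part of coding length in these differences was not tested.

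Other proteins of splicing were read from 7 lists with 92 genes, all tested. Of these, 8 were higher in d27, 5 were lower and 79 did not pass, with a median log2 fold change of 0.01. These shares, 8.70% and 5.43%, stand beside 8% and 3.7% of all genes tested. Among 17 proteins associated with U1 and U2, 2 were higher and 1 lower. SF1, the protein that holds the branch point before U2 arrives, had 1175 and 1408 CPM in d27 replicates 1 and 2, against 389 and 397 CPM in WT replicates 1 and 2, 3.28-fold higher in d27 (log2 1.72 ± 0.27 SE, edgeR adjusted p = 0.0134), and was called in all 13 alternatives. CHERP, a U2-associated protein, had 439 and 445 CPM in d27 and 187 and 231 CPM in WT (log2 1.08 ± 0.25 SE, edgeR adjusted p = 0.0334), a call lost without d27 replicate 1 (1.10, adjusted p = 0.0784). PUF60, which binds pyrimidine tracts beside U2AF, had 111 and 158 CPM in d27 and 237 and 375 CPM in WT (log2 -1.19 ± 0.31 SE, edgeR adjusted p = 0.0474). It missed the threshold on leaving out WT replicate 2 (-0.80, edgeR adjusted p = 0.139) or d27 replicate 1 (-0.93, adjusted p = 0.211) and on scaling by library totals (-1.11, adjusted p = 0.0553).

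Of 15 further proteins related to the Prp19 complex, 3 were higher and 2 lower. ISY1 (27.1 and 25.6 CPM in d27 and 8.62 and 5.60 CPM in WT) and RBM22 (125 and 125 CPM in d27 and 53.4 and 40.7 CPM in WT) were higher (log2 1.89 ± 0.34 SE and 1.41 ± 0.25 SE; edgeR adjusted p = 0.0181 and 0.0172), and both were called in all 13 alternatives. PPIL1, a cyclophilin, was higher (log2 1.18 ± 0.28 SE, edgeR adjusted p = 0.0355). XAB2, a partner of AQR (log2 -1.56 ± 0.29 SE, edgeR adjusted p = 0.0199) and CTNNBL1, a binding partner of CDC5L (log2 -1.13 ± 0.25 SE, edgeR adjusted p = 0.0323) were lower. Without d27 replicate 1, PPIL1 (1.19, edgeR adjusted p = 0.103), XAB2 (-1.30, adjusted p = 0.0532) and CTNNBL1 (-1.07, adjusted p = 0.114) did not pass, and without WT replicate 2, PPIL1 (0.98, adjusted p = 0.0761) and CTNNBL1 (-0.87, adjusted p = 0.0882) did not. Scaling by library totals (1.20, edgeR adjusted p = 0.0622) and the coding-length offset also ended the call of PPIL1 (0.80, adjusted p = 0.0571).

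Of 14 proteins of the B complex and the second step, SLU7, a second-step factor, was higher (138 and 106 CPM in d27 and 47.5 and 58.2 CPM in WT; log2 1.21 ± 0.26 SE, edgeR adjusted p = 0.0279), and DHX16, a helicase that remodels the spliceosome before the first step, was lower (log2 -0.997 ± 0.22 SE, edgeR adjusted p = 0.0321). SLU7 did not pass without d27 replicate 1 (1.02, edgeR adjusted p = 0.106). DHX16 fell short on leaving out d27 replicate 1 (-0.97, edgeR adjusted p = 0.144), d27 replicate 2 (-0.97, adjusted p = 0.0849) or WT replicate 2 (-0.94, adjusted p = 0.0685), on scaling by library totals (-0.95, adjusted p = 0.0553) and under the coding-length offset (-0.19, adjusted p = 0.574). Of 15 proteins of U6 and the tri-snRNP, DDX23, a helicase that displaces U1 from the 5′ splice site, was lower (log2 -1.03 ± 0.27 SE, edgeR adjusted p = 0.0463) and none was higher. It missed the threshold on leaving out WT replicate 2 (-0.70, edgeR adjusted p = 0.172), d27 replicate 1 (-0.98, adjusted p = 0.170) or d27 replicate 2 (-1.02, adjusted p = 0.0797), on scaling by library totals (-0.96, adjusted p = 0.0556) and with the coding-length offset (-0.63, adjusted p = 0.0786).

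Of 17 proteins that assemble snRNPs, 2 were higher and none lower. STRAP, a partner of the SMN complex, had 259.5 and 272 CPM in d27 and 129 and 75.9 CPM in WT (log2 1.38 ± 0.30 SE, edgeR adjusted p = 0.0296), and CLNS1A, which holds Sm proteins before ring closure, had 84.7 and 82.1 CPM in d27 and 41.3 and 41.5 CPM in WT (log2 1.01 ± 0.23 SE, edgeR adjusted p = 0.0344). Without WT replicate 2 STRAP (1.07, edgeR adjusted p = 0.0593) and CLNS1A (1.04, adjusted p = 0.0638) did not pass, and with library totals only neither did (1.38, adjusted p = 0.0506 and 1.05, adjusted p = 0.0510). CLNS1A also did not pass without d27 replicate 1 (1.00, edgeR adjusted p = 0.141), without d27 replicate 2 (1.06, adjusted p = 0.0592), under the exon-length offset (0.72, adjusted p = 0.0604) or under the coding-length offset (0.40, adjusted p = 0.294). None of 9 minor spliceosome proteins and none of 5 exon junction complex proteins passed, with median log2 fold changes of 0.64 and -0.48 (edgeR, with 4 and 0 at an unadjusted p under 0.05; DESeq2 called 3 and 0). SNRPN, a close paralog of SNRPB, was at 1.41 and 3.15 CPM in d27 and 2.16 and 3.21 CPM in WT and did not pass.

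The RNA partners of these proteins ranged from 0 counts in every library (RNU2-1) to as many as 736 in 1 library (RNU5A-1, d27 replicate 2). Of 11 spliceosomal snRNA genes, RNU2-1, RNU11 and RNU12 had 0 counts in every library, 6 were tested and edgeR called none (0 of 6 had an unadjusted p under 0.05 and DESeq2 called 0). RNU5A-1 had 7.49 and 68.2 CPM in d27 and 71.5 and 44.3 CPM in WT, RNU5B-1 had 7.21 and 41.4 CPM in d27 and 76.1 and 38.6 CPM in WT and RNU4-2 had 8.19 and 58.2 CPM in d27 and 52.6 and 50.4 CPM in WT. In all 3, d27 replicate 1 was the lowest library by far, and d27 replicate 2 was at a level like that of WT. Without d27 replicate 2, edgeR called 4 of the 6 lower: RNU5A-1 (-2.92, adjusted p = 1.75e-05), RNU5B-1 (-2.96, adjusted p = 2e-05), RNU4-2 (-2.62, adjusted p = 0.000102) and RNU4-1 (-3.21, adjusted p = 0.000391), a fit in which d27 is replicate 1 alone. These genes have many near-identical copies and their RNAs are short, so the counts are uncertain.

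**Figure D4:**
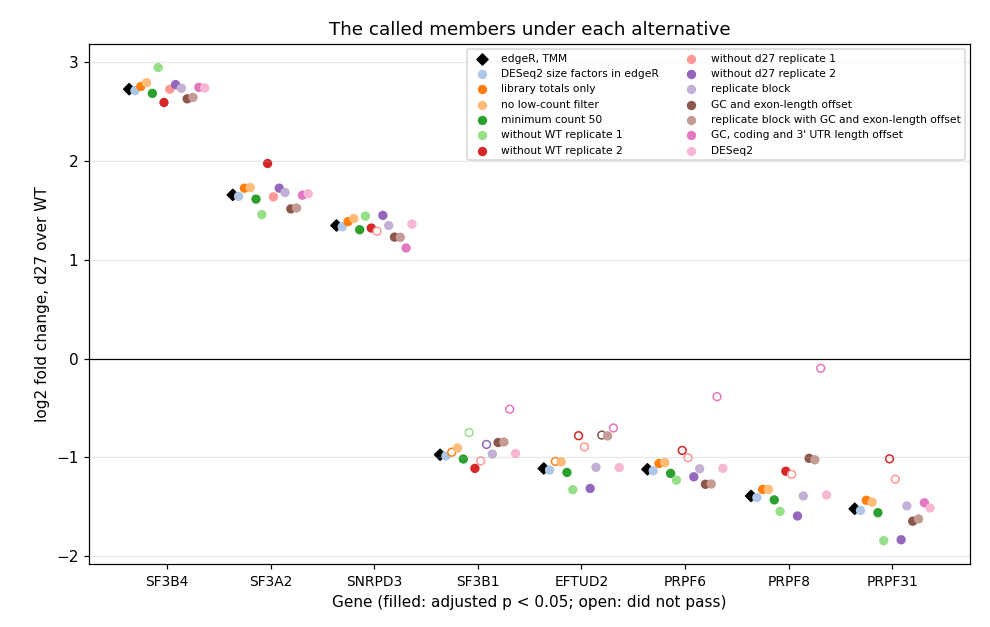
Log2 fold change, d27 over WT, of the 8 called mRNAs under the edgeR test with TMM (diamond) and 13 alternatives (circles); filled symbols passed an adjusted p of 0.05 and open ones did not. SF3B4 and SF3A2 are filled throughout, every symbol keeps its side of 0, and PRPF8 comes nearest to 0 at -0.10 with the coding-length offset.

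The 8 calls differed in how many alternatives they survived. Those of SF3B4 and SF3A2 held in all 13. All 8 held with DESeq2's size factors in edgeR, with no filter, with a minimum count of 50 and with DESeq2 itself. Library totals kept 6 and the exon-length offset 7. With the coding-length offset 4 of 8 held (SF3B4, SF3A2, SNRPD3 and PRPF31), and without d27 replicate 1 only SF3B4 and SF3A2 did. Each of the 8 kept its sign in all 13 alternatives.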

How the data were processed

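RNA from 2 d27 and 2 WT anti-V5 precipitates was sequenced; per the labels' protocols ribosomal RNA was removed and a stranded kit was used. The authors deposited raw counts of reads for each gene, from HTSeq on GRCh38 per the submitters' processing notes, which also name DESeq2. Those notes name no versions, and the aligner, gene annotation and strand setting of the counting were not given in the sources used here. HTSeq's summary entries (25.9% and 36.8% of entries in d27 replicates 1 and 2, 47.6% and 47.3% in WT) were left out of totals and tests. By default HTSeq leaves out reads that fit several places or genes.

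Symbols came from a gene name table (60463 of 60719 genes), and positions, lengths and GC from GENCODE 29 (58488 genes). Tests used edgeR 4.0.16 (R 4.3.3): TMM, filterByExpr (minimum count 10, minimum total 15), robust glmQLFit and glmQLFTest on group alone, with Benjamini-Hochberg adjustment over 14909 genes. SEs were taken as |log2 fold change| over the root of the F statistic. A count of 0 allows up to 3 counts, or 0.164 and 0.286 CPM in d27 and 0.368 and 0.277 CPM in WT, which covers counting error only.

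Members and lists were chosen with earlier results of these data known. Named are all members, with full values for called ones and for the lowest p in each subcomplex, and up to 3 called genes per direction in each other list. Alternatives tried: DESeq2 1.42.0; edgeR with DESeq2's size factors, with library totals, with no filter (at least 1 count), a minimum count of 50, each library left out, the replicate number as a block, offsets for GC and exon length with and without that block, and, chosen after seeing the data, a further offset built from GC and the lengths of the coding sequence and the 3′ UTR.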

Additional observations from a re-analysis of the deposited data

How the results depend on the processing

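With one library left out, the members called higher numbered 2 to 4 and those called lower 0 to 6 (3 and 5 with all libraries), and their median log2 fold change ran from -0.311 to 0.00237. Over all genes the same fits gave 697 to 2715 higher and 71 to 2136 lower calls (1192 and 551 with all libraries), and over the 92 genes of the other lists 4 to 19 higher and 0 to 13 lower (8 and 5), with medians from -0.0393 to 0.106. A group left with 1 library is assumed to vary like the other. Library totals gave 3 lower members, 285 lower genes in all, and 5 higher and 2 lower in the other lists. No filter gave 1888 higher and 974 lower genes in all and 14 higher in the other lists. A minimum count of 50 gave 8 lower members, 934 lower genes in all and 8 lower in the other lists. DESeq2 gave 9 lower members, 1112 lower genes in all, and 15 higher and 8 lower in the other lists. The GC and exon-length offset gave 11 lower in the other lists. The coding-length offset gave 3 lower members and 3 lower in the other lists. The median of the other lists, 0.01, was 0.0450 with library totals, 0.0742 with no filter, -0.0334 with a minimum count of 50, -0.00615 with DESeq2's size factors, -0.0561 with the GC and exon-length offset, -0.0537 with that offset and the block, -0.0948 with the coding-length offset and 0.0189 with DESeq2. The cause of these shifts was not tested. The median over all genes was 0.31 with no filter and 0.26 with DESeq2, which both read 31016 genes. Of 37 log2 ratios of group means, 22 moved by more than the replicate spread from CPM to TPM. With transcript length in place of merged exon length, an alternative chosen after seeing the data, 69 of 74 level ranks changed. SNRPN had no value with a minimum count of 50.

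The replicate numbers are not stated to mark a shared culture or day, and the deviations of same-numbered libraries had r = 0.0962 across 14909 genes. With the number as a block, 4 members were higher and 11 lower, against 2137 and 1438 genes in all and 16 and 13 in the other lists. With the block and the GC and exon-length offset, 5 members were higher and 10 lower, against 2382 and 1739 genes in all and 14 and 18 in the other lists.

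No called member changed sign. Members that did not pass changed the sign of their log2 fold change as follows, with KIF5A beside them, and the value given is that of the alternative. With each library left out in turn, these ran for SF3A3 from -0.14 to 0.24, SF3B5 from -0.88 to 0.55, SF3B6 from -0.37 to 0.21, SNRPA1 from -0.26 to 0.36, SNRPC from -0.42 to 0.14, SNRPD1 from -0.54 to 0.10, CDC5L from -0.13 to 0.0885 and KIF5A from -0.57 to 0.40. With a minimum count of 50: SF3A3 -0.00906. With the GC and exon-length offset: SF3A3 -0.12. With the replicate block with that offset: SF3A3 -0.12. With the coding-length offset: SF3A3 -0.13, SNRPB2 -0.20, PRPF38A -0.16, CDC5L 0.0158, AQR 0.0877 and KIF5A 0.21. With library totals only: SNRPA1 0.000496. With no filter: SNRPA1 0.0491 and CDC5L 0.0128. With the replicate block: SNRPA1 0.0104. With 2 libraries per group, changes of members with few counts, such as SF3B5 and U2AF1, could not be resolved.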
